A study of Mus musculus with 6 samples.

Results

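Transcripts of 50 genes that write, read or erase chromatin marks or move nucleosomes were followed in Klf4-null mouse embryonic fibroblasts (Klf4 -/-) and in wild-type ones (Klf4 +/+), which are connective-tissue cells cultured from embryos. The genes cover DNA methylation, the Polycomb complexes, histone deacetylases, the machinery of histone H3 lysine 9 (H3K9) methylation, histone demethylases, the SWI/SNF and CHD remodellers and the insulator protein Ctcf. Every probe that carries one of the listed symbols was taken, a rule that uses names and no measured value. Of the 50 genes, 48 had at least 1 probe, 88 probes in all, out of 32291 gene symbols and 46621 probes in the data. Hdac1 and Cbx1 were not analysed here. Of the 48 genes, 45 were matched by the deposited symbol itself and 3 (Hdac7, Kdm5b and Kdm6b) through a RefSeq synonym of it.

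Each genotype was represented by 3 samples on 1 Illumina bead array each, all of the C57Bl/6 strain with an age given as 13 days. The labels do not describe how the Klf4 gene was disrupted, and they number the replicates without naming separate cultures or embryos. The p-values therefore reflect only how far these samples scatter, possibly for technical reasons, and an effect of genotype cannot be told apart from a difference between cultures.

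DNA methylation is laid down at new sites by Dnmt3a and Dnmt3b, with Dnmt3l as a partner that has no catalytic activity of its own, and is copied after replication by Dnmt1, which Uhrf1 brings to hemimethylated DNA. Polycomb repressive complex 2 (PRC2) methylates histone H3 at lysine 27 through Ezh1 or Ezh2. Polycomb repressive complex 1 (PRC1) ubiquitinates histone H2A through Ring1 or Rnf2 and in its canonical forms binds the PRC2 mark through Cbx proteins. In fibroblasts these complexes are known for holding the Ink4a/Arf locus and the Hox clusters silent.

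Klf4 is a zinc-finger factor whose family binds CACCC boxes and GC-rich DNA, so the start-site windows of the members were read for that box. The 4 windows below belong to the members with the largest falls (Dnmt3b and Cbx7) and the largest rises (Ring1 and Sirt1) among changed genes with 1 listed start. Each runs 300 bases, from 250 before to 50 after the RefSeq start in GRCm38.p6, 5′ to 3′ on the strand of the gene, and capitals mark CACCC or its reverse complement GGGTG.
Dnmt3b, chr2:153649199-153649498, plus strand: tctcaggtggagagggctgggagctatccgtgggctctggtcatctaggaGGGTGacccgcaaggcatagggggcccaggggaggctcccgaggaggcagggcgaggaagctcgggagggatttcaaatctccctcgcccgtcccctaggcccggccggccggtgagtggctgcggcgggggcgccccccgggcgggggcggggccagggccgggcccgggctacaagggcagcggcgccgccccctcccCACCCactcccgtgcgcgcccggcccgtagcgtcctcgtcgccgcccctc
Cbx7, chr15:79932597-79932896, minus strand: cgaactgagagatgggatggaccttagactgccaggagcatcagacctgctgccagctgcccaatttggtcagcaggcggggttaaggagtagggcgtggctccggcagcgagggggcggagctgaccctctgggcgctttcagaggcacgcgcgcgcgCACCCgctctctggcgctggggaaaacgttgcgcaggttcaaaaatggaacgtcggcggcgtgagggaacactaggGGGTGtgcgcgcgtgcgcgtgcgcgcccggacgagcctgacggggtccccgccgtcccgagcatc
Ring1, chr17:34024631-34024930, minus strand: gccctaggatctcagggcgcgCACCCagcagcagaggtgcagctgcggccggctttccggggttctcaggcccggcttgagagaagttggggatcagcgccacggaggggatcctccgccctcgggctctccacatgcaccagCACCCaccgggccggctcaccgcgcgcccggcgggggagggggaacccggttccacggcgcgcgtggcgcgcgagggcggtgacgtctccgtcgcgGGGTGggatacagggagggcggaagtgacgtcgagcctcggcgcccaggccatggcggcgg
Sirt1, chr10:63338986-63339285, minus strand: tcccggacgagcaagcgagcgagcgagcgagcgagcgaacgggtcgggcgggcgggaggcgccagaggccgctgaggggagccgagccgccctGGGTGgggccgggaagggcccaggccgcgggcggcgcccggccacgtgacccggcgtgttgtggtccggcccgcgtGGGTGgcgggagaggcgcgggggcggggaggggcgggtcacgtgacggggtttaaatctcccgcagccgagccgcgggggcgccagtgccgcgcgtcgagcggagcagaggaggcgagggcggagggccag
The box occurred 2 times in each of the windows of Dnmt3b, Cbx7 and Sirt1 and 3 times in that of Ring1. RefSeq windows were at hand for 43 of the member genes, 62 windows in all. The box, on either strand, was present in 40 of them (64.5%), against 57.5% of all 32851 windows of the same length. It was present in 8 of 12 windows of genes that rose, 6 of 8 of genes that fell and 18 of 27 of genes that did not pass. The member windows were rich in the dinucleotide CpG, with a median of 29 per window, against 7 over all windows, and with a median observed over expected ratio of 0.84, against 0.38. Such matches describe letters in these windows and are not evidence of binding.

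Values are normalized intensities on a linear scale, with medians of 51.7 to 51.8 on all arrays. A background floor was estimated on each array, at 54.0 to 54.2, and a probe was tested if 3 or more of the 6 arrays exceeded it. Arrays correlated across tested probes at 0.996 to 0.998 within Klf4-null cells, 0.995 to 0.996 within wild-type cells and 0.947 to 0.951 between the groups. Klf4 itself was read by 3 probes, of which ILMN_1241903 (43.4 ± 3.55 in Klf4-null cells and 99 ± 3.61 in wild-type cells, SD, n = 3) and ILMN_1221264 (43.5 ± 2.05 in Klf4-null cells and 69.1 ± 7.82 in wild-type cells) were above the floor on no Klf4-null array. The brightest, ILMN_2593684, gave 715 ± 19.2 in Klf4-null cells and 426 ± 60 in wild-type cells, so the targeted transcript was lower on 2 probes and higher on 1, and where each probe lies relative to the disruption is not given in the sources used here. All 7 fibroblast markers were above the floor, with summed intensities of 42226 to 45078 in Klf4-null cells and 36802 to 38638 in wild-type cells. Within that sum Col1a1 rose (10926 ± 1196 in Klf4-null cells and 5313 ± 1400.5 in wild-type cells), Pdgfra (551 ± 67.1 in Klf4-null cells and 988 ± 30.5 in wild-type cells) and Col1a2 (135 ± 19 in Klf4-null cells and 169 ± 6.13 in wild-type cells) fell on their brightest probe, and the other genes did not pass. Markers of other cells counted as above the floor if a probe exceeded it on 3 or more of the 6 arrays. That held for 2 of 6 epithelial, 2 of 5 endothelial, 2 of 4 muscle and 3 of 4 pluripotent genes. It also held for 3 of 7 macrophage and blood genes and 3 of 4 neural genes. Of these, Cdh1, Myog, Hbb-b1, Gfap, Pou5f1 and Nanog had group means of 52.9 to 58.1 on their brightest probe, near the floor. Each sum takes in all probes of its list, also those too dim to be tested, so sums cannot be compared between lists. Tested probes were 2 of 8 epithelial, 2 of 7 endothelial, 6 of 24 macrophage and blood, 2 of 4 muscle, 3 of 6 neural and 4 of 8 pluripotent. Summed epithelial signal was 379 to 396 in Klf4-null cells and 465 to 493 in wild-type cells, with Epcam, Krt5, Krt8 and Krt18 not above the floor. Endothelial sums were 382 to 399 in Klf4-null cells and 393 to 403 in wild-type cells, and macrophage and blood sums 1365 to 1400 in Klf4-null cells and 1375 to 1396 in wild-type cells, with Ptprc, Adgre1, Csf1r and Lyz2 not above the floor. Muscle sums were 205 to 217 in Klf4-null cells and 225 to 288 in wild-type cells, and pluripotent sums 436 to 461 in Klf4-null cells and 377 to 395 in wild-type cells. In the pluripotent list both probes of Sox2 rose, while Pou5f1 and Nanog did not pass and Zfp42 was not above the floor. Neural signal was 1038 to 1126 in Klf4-null cells and 328 to 343 in wild-type cells. Within it, nestin (Nes) alone rose, with 810 ± 47 in Klf4-null cells and 43.8 ± 0.328 in wild-type cells. Tubb3 was slightly lower (81.2 ± 1.85 in Klf4-null cells and 91.4 ± 2.54 in wild-type cells). So was Gfap (53 ± 1.49 in Klf4-null cells and 57.1 ± 1.27 in wild-type cells). Neither of these passed, and Sox10 was not above the floor. The keratin Krt14 gave 41.1 ± 1.29 in Klf4-null cells and 143 ± 17.5 in wild-type cells. In such bulk samples, fewer cells of a type and less RNA per cell cannot be told apart, and the part of these markers in the results below was not tested.

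Of the 48 member genes, 38 had a probe bright enough to be tested and 10 did not. Read by the brightest tested probe, 10 genes rose in Klf4-null cells (Ring1, Suv39h1, Sirt1, Smarcc1, Smarcd1, Rnf2, Smarca4, Mbd3, Mbd1 and Dnmt1), 6 fell (Dnmt3b, Dnmt3l, Cbx7, Ezh2, Smarcd3 and Ctcf) and 22 did not pass, at an adjusted p under 0.05 by limma over all genes tested. The 16 changed genes were 42.1% of those tested, beside a background of 40.1% over all 16213 genes (19.3% higher and 20.8% lower), so the share of members that changed was near that of genes in general. Over probes, 24 of 55 passed, 15 higher and 9 lower, beside a background of 38.9% (19% higher and 19.9% lower). The median log2 fold change was 0.11 over the tested members and -0.03 over all genes tested, and the median of its size was 0.20 and 0.17. The member median was 0.05 without Klf4-null replicate 1, 0.04 without wild-type replicate 2 and 0.03 with no filter on dim probes. Changes of at least 2-fold were made by 5 members (13.2%), against 7.14% of all genes, and they were Dnmt3b, Dnmt3l, Cbx7, Ring1 and Suv39h1.

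**Figure D1:**
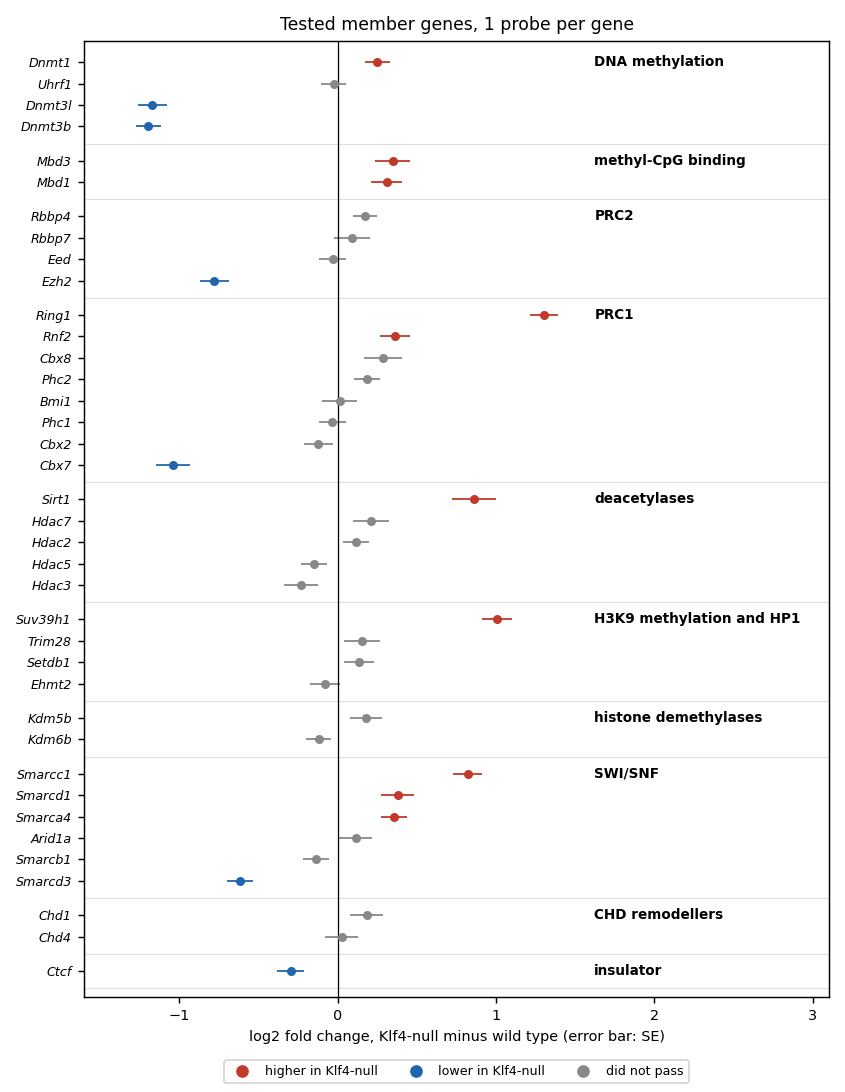
Log2 fold change of the 38 tested member genes, Klf4-null minus wild type, each read by its brightest tested probe and grouped by role, with the SE of the fit as error bar (3 arrays per group). Red genes rose and blue genes fell at an adjusted p under 0.05, and values run from -1.20 for Dnmt3b to 1.30 for Ring1, the second fitted against wild-type arrays at background.

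**Figure D2:**
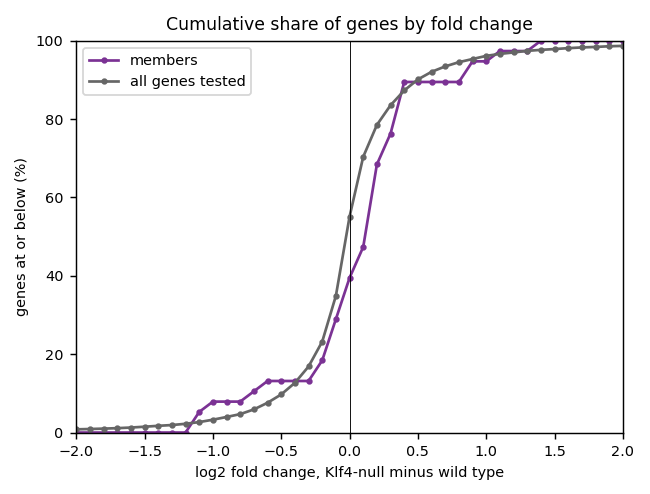
Cumulative share of genes at or below each log2 fold change, for the 38 tested members and all 16213 genes tested. The members lie to the right of all genes around 0, where their median is 0.11 against -0.03.

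Dnmt3b and Dnmt3l, of the machinery that methylates new sites, were lower in Klf4-null cells, while the copying enzyme Dnmt1 was slightly higher. Dnmt3b, the catalytic subunit, gave 199, 214 and 202 in Klf4-null cells, against 466, 445 and 503 in wild-type cells. It fell 2.29-fold (log2 fold change -1.20 with SE 0.08, adjusted p = 3.2e-08, limma), and the groups lay far apart. The other probe of Dnmt3b was too dim to be tested, above the floor on 1 Klf4-null array and no wild-type array. Its cofactor Dnmt3l gave 99.3, 98.5 and 99.4 in Klf4-null cells, against 223, 252 and 198 in wild-type cells. The Klf4-null arrays were nearly equal, all below the lowest wild-type array, and the fall was 2.25-fold (log2 fold change -1.17 with SE 0.09, adjusted p = 1.6e-07). The maintenance enzyme Dnmt1 gave 1299.9, 1322 and 1407 in Klf4-null cells, against 1134, 1052 and 1205 in wild-type cells. It rose 1.19-fold (log2 fold change 0.25 with SE 0.08, adjusted p = 0.026) with no overlap, but the call was lost without Klf4-null replicate 2 or 3 or wild-type replicate 1 or 2. Uhrf1, which recruits Dnmt1, did not pass, with 6717 ± 154 in Klf4-null cells and 6851 ± 459 in wild-type cells (SD, n = 3, log2 fold change -0.03 (SE 0.08)). All 3 probes of Dnmt3a, the other enzyme of new methylation, were above the floor on no array.

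Of the readers of methylated DNA, the 2 tested members rose (100% changed, beside 40.1% of all genes). Mbd1, which represses methylated promoters, gave 118, 103 and 92.8 in Klf4-null cells, against 85.9, 78.1 and 88.7 in wild-type cells on its brightest probe (1.24-fold, log2 fold change 0.31 with SE 0.10, adjusted p = 0.02). Its other tested probes gave 0.13 (SE 0.08) and 0.11 (SE 0.09) on the log2 scale and did not pass. Mbd3, a subunit of the NuRD complex that in mammals binds methylated DNA poorly, gave 1167, 845 and 977 in Klf4-null cells, against 729, 751 and 856 in wild-type cells. Its groups overlapped by 1 array of each, and the rise of 1.27-fold (log2 fold change 0.35 with SE 0.11, adjusted p = 0.024) was lost without Klf4-null replicate 1 or wild-type replicate 1 or 2. The call of Mbd1 was lost without Klf4-null replicate 1 or 2 or wild-type replicate 2. The probe of Mbd2 was above the floor on no array.

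In PRC2 the catalytic subunit Ezh2 was lower, while the probes of its histone-binding subunits disagreed. Ezh2 gave 135, 134 and 112 in Klf4-null cells, against 206, 232 and 215 in wild-type cells. It fell 1.72-fold (log2 fold change -0.78 with SE 0.09, adjusted p = 1e-05), and every Klf4-null array was below every wild-type array. The other probe of Ezh2 was above the floor on no array and was not tested. Eed, which binds the methylated product and stimulates the enzyme, did not pass, with 1069 ± 52.4 in Klf4-null cells and 1094 ± 93 in wild-type cells (log2 fold change -0.03 (SE 0.09)). The probes of Ezh1, Suz12 and Jarid2 were too dim to be tested, each above the floor on at most 1 array.

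Rbbp4 and Rbbp7 encode close relatives that hold histones in PRC2 and in deacetylase complexes. Rbbp4 had 4 tested probes, the brightest of which, ILMN_1235327, gave 761, 799 and 788 in Klf4-null cells, against 715, 689 and 677 in wild-type cells. That difference of 0.17 (SE 0.07) on the log2 scale did not pass (adjusted p = 0.086), although the groups did not overlap. Probe ILMN_1230623 of the same gene gave 609.6, 630.2 and 605 in Klf4-null cells, against 47.6, 45.2 and 46.5 in wild-type cells. It was above the floor on all Klf4-null arrays and on no wild-type array, and rose at least 11.4-fold (log2 fold change 3.73 with SE 0.07, adjusted p = 9.7e-14). Probe ILMN_1249638 gave 111, 118 and 113 in Klf4-null cells, against 56.1, 63.2 and 59.1 in wild-type cells, a rise of 1.92-fold (log2 fold change 0.94 with SE 0.08, adjusted p = 3.6e-07). Probe ILMN_2689917 rose at least 1.16-fold (log2 fold change 0.70 with SE 0.08, adjusted p = 4.5e-06) and was at background on the wild-type arrays. All 4 probes had positive log2 fold changes, those of ILMN_1230623 and ILMN_2689917 being fitted against wild-type values at background, and which transcript each probe reads was not given in the sources used here.

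Rbbp7 lies on the X chromosome and had 3 tested probes. Its brightest, ILMN_1243578, gave 1342, 1111 and 1389 in Klf4-null cells, against 1080, 1134 and 1405 in wild-type cells and did not pass (log2 fold change 0.09 (SE 0.11)), with overlapping groups. ILMN_2691192 gave 591, 599.7 and 544 in Klf4-null cells, against 765, 876 and 825 in wild-type cells. That is a fall of 1.42-fold (log2 fold change -0.51 with SE 0.08, adjusted p = 0.00022), and ILMN_1219275 fell 1.37-fold (log2 fold change -0.45 with SE 0.08, adjusted p = 0.00049). The groups of both these probes were apart, so the gene had lower signal on 2 probes and no call on the third.

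**Figure D3:**
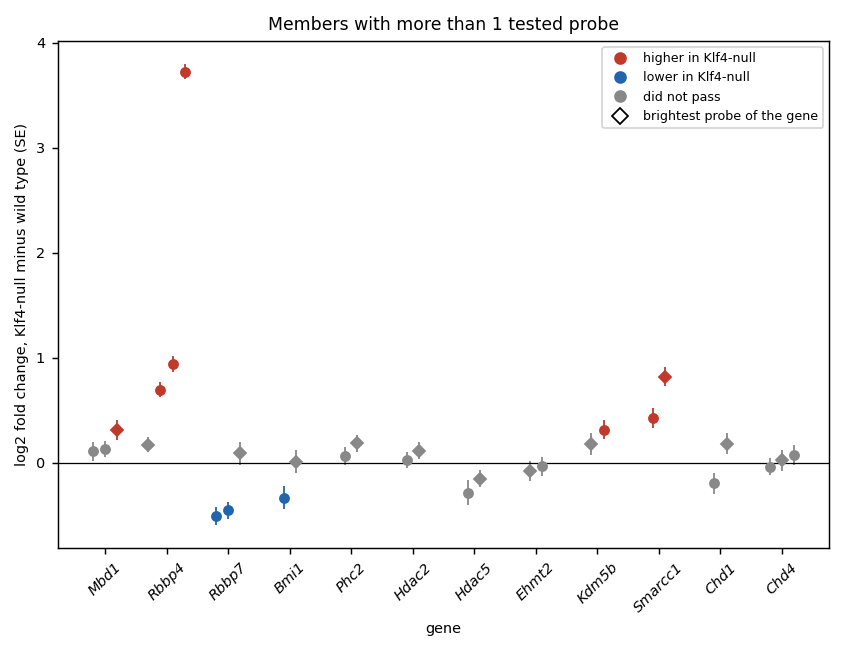
Log2 fold change, Klf4-null minus wild type, of every tested probe of the 12 member genes with more than 1, with the SE as error bar (3 arrays per group). Diamonds mark the brightest probe, and the highest Rbbp4 value of 3.73 is fitted against wild-type arrays at background. The probes of Rbbp7, Bmi1, Chd1 and Chd4 lie on both sides of 0.

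In PRC1, 3 of the 8 tested members changed (37.5%), beside 40.1% of all genes. Both ubiquitin ligases were higher and 1 of the chromobox readers was lower. Ring1 gave 124, 113 and 127 in Klf4-null cells, against 44, 51 and 52.7 in wild-type cells. The wild-type arrays were all at background, and the rise was at least 2.24-fold (log2 fold change 1.30 with SE 0.09, adjusted p = 4.2e-08). Rnf2, the other catalytic subunit, gave 86.1, 77.7 and 73.7 in Klf4-null cells, against 60.3, 56.8 and 68 in wild-type cells. Its groups did not overlap, and it rose 1.28-fold (log2 fold change 0.36 with SE 0.09, adjusted p = 0.0061). Cbx7, a reader of the PRC2 mark that is known to repress the Ink4a/Arf locus in fibroblasts, gave 152, 137 and 144 in Klf4-null cells, against 292, 254 and 353 in wild-type cells. It fell 2.06-fold (log2 fold change -1.04 with SE 0.11, adjusted p = 3.1e-06), with wild-type arrays more scattered than Klf4-null arrays and no overlap.

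The other chromobox and Posterior-sex-combs-like members of PRC1 did not pass on their brightest probe. Cbx8 gave 184 ± 19.1 in Klf4-null cells and 152 ± 25.7 in wild-type cells (log2 fold change 0.28 (SE 0.12), adjusted p = 0.076) and Cbx2 gave 145 ± 9.33 in Klf4-null cells and 159 ± 16.3 in wild-type cells (-0.12 (SE 0.09)). The polyhomeotic genes Phc1 and Phc2, whose products chain PRC1 units together, gave -0.04 (SE 0.09) and 0.19 (SE 0.08) on the log2 scale. Bmi1, which pairs with the ligases and represses Ink4a/Arf, gave 501, 416 and 389 in Klf4-null cells, against 389.9, 406 and 501 in wild-type cells on its brightest probe, and the groups overlapped. Its dimmer probe ILMN_2645439 gave 155, 136 and 145 in Klf4-null cells, against 179, 155 and 219 in wild-type cells, a fall of 1.26-fold (log2 fold change -0.33 with SE 0.11, adjusted p = 0.03). That call was lost with no filter on dim probes and without Klf4-null replicate 2 or 3 or wild-type replicate 1 or 3.

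Among the deacetylases 1 of the 5 tested members changed (20%), Sirt1, beside 40.1% of all genes. Of 16 further deacetylases and corepressors, 10 changed (62.5%). Sirt1, a deacetylase that needs NAD+ and acts on histones and on p53, gave 335, 255 and 232 in Klf4-null cells, against 149.6, 125 and 177 in wild-type cells. It rose 1.81-fold (log2 fold change 0.86 with SE 0.14, adjusted p = 0.0002), the arrays of both groups were scattered, and the lowest Klf4-null array stood above the highest wild-type array. The call was lost when the variance was not shared between probes. Hdac2 and Hdac3, class I enzymes of the corepressor complexes, gave 0.12 (SE 0.08) and -0.23 (SE 0.10) on the log2 scale, and the class IIa enzymes Hdac5 and Hdac7 gave -0.15 (SE 0.08) and 0.21 (SE 0.11). For Hdac3, 2 wild-type arrays (2450 and 2374) stood above the range of 1827 to 1954 in Klf4-null cells and 1 (1830) lay within it. Without that array (wild-type replicate 3) Hdac3 passed.

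Of the 4 tested genes of H3K9 methylation and its readers, 1 changed (25%), beside 40.1% of all genes. Suv39h1 rose and 3 others did not pass. Suv39h1, which trimethylates H3K9 in constitutive heterochromatin, gave 420.4, 375 and 351 in Klf4-null cells, against 198, 171 and 201 in wild-type cells. The rise was 2.01-fold (log2 fold change 1.01 with SE 0.09, adjusted p = 9.8e-07) with no overlap. Its other probe was too dim to be tested, above the floor on 2 Klf4-null arrays and no wild-type array. The gene lies on the X chromosome, and sex-linked transcripts moved with the groups. Xist, the RNA that coats the inactive X, gave 260 ± 24.2 in Klf4-null cells and 70.2 ± 4.29 in wild-type cells, and the Y-linked Kdm5d gave 43.1 ± 3.73 in Klf4-null cells and 122 ± 19.4 in wild-type cells, while neither Ddx3y nor Eif2s3y exceeded the floor. The Y-linked Uty gave 78 ± 6.05 in Klf4-null cells and 80.1 ± 1.29 in wild-type cells and did not pass. The labels give no sex, and sex and genotype cannot be told apart here. Setdb1, the methyltransferase that Trim28 brings to retroelements, gave 310 ± 36.1 in Klf4-null cells and 282 ± 18.5 in wild-type cells (0.13 (SE 0.09)), and Trim28 gave 7264 ± 204 in Klf4-null cells and 6602 ± 1139 in wild-type cells (0.15 (SE 0.11)). Ehmt2, which dimethylates H3K9 in euchromatin, gave -0.08 (SE 0.10). The 2 probes of its partner Ehmt1, all 4 probes of Suv39h2 and those of the HP1 genes Cbx3 and Cbx5, which encode readers of H3K9 methylation, were too dim to be tested.

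The histone demethylases among the members, Kdm5b and Kdm6b, did not pass on their brightest probe. Kdm5b, which removes methyl groups from H3K4, gave 0.18 (SE 0.10) on the log2 scale on its brightest probe. Its other probe, ILMN_2777722, gave 153, 131 and 124 in Klf4-null cells, against 115, 109 and 103 in wild-type cells, a rise of 1.25-fold (log2 fold change 0.32 with SE 0.09, adjusted p = 0.014) that was lost without Klf4-null replicate 1. Kdm6b, which removes the PRC2 mark, gave 63.6, 64.5 and 65.8 in Klf4-null cells, against 70.9, 73.7 and 66.5 in wild-type cells, and its difference of -0.12 (SE 0.08) did not pass although the groups were apart.

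SWI/SNF, the remodelling complex that uses ATP to slide or evict nucleosomes, had 4 changed genes of 6 tested (66.7%), beside 40.1% of all genes, while 4 of 13 further SWI/SNF genes changed (30.8%). The scaffold subunit Smarcc1 (BAF155) gave 286, 296 and 321 in Klf4-null cells, against 166, 191 and 156 in wild-type cells. It rose 1.77-fold (log2 fold change 0.82 with SE 0.09, adjusted p = 5.9e-06). The second tested probe of the gene rose 1.35-fold (log2 fold change 0.43 with SE 0.09, adjusted p = 0.0023), both without overlap. The ATPase Smarca4 (BRG1) gave 539, 538 and 582 in Klf4-null cells, against 452, 396 and 451 in wild-type cells, a rise of 1.28-fold (log2 fold change 0.36 with SE 0.08, adjusted p = 0.0035). The accessory subunits Smarcd1 (BAF60A) and Smarcd3 (BAF60C), which can take the same place in the complex, moved in opposite directions. Smarcd1 gave 307, 276 and 257 in Klf4-null cells, against 222, 185 and 241 in wild-type cells and rose 1.30-fold (log2 fold change 0.38 with SE 0.10, adjusted p = 0.01). Its other probes were too dim to be tested. Smarcd3, known for a role in heart and muscle development, gave 167, 159 and 142 in Klf4-null cells, against 229, 247 and 241 in wild-type cells and fell 1.53-fold (log2 fold change -0.62 with SE 0.08, adjusted p = 4e-05). For both genes all Klf4-null arrays lay on 1 side of the wild-type arrays. The core subunit Smarcb1 (-0.14 (SE 0.08)) and the DNA-binding subunit Arid1a (0.11 (SE 0.10)) did not pass, and the alternative ATPase Smarca2 was above the floor on no array.

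Ctcf, the zinc-finger protein of insulators and chromatin loops, gave 1075, 953 and 914 in Klf4-null cells, against 1156, 1171 and 1282 in wild-type cells. It fell 1.23-fold (log2 fold change -0.30 with SE 0.09, adjusted p = 0.014) with no overlap, and the call was lost without Klf4-null replicate 2 or 3 or wild-type replicate 3. The CHD remodellers among the members, Chd1 and Chd4, did not pass. Chd4, the ATPase of NuRD, gave 1624 ± 163 in Klf4-null cells and 1599.7 ± 199 in wild-type cells (0.02 (SE 0.10)) on its brightest probe, with 2 further probes at -0.04 and 0.08. Chd1, which is tied to transcribed genes, gave 0.18 (SE 0.10) on 1 probe and -0.20 (SE 0.10) on the other.

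**Figure D4:**
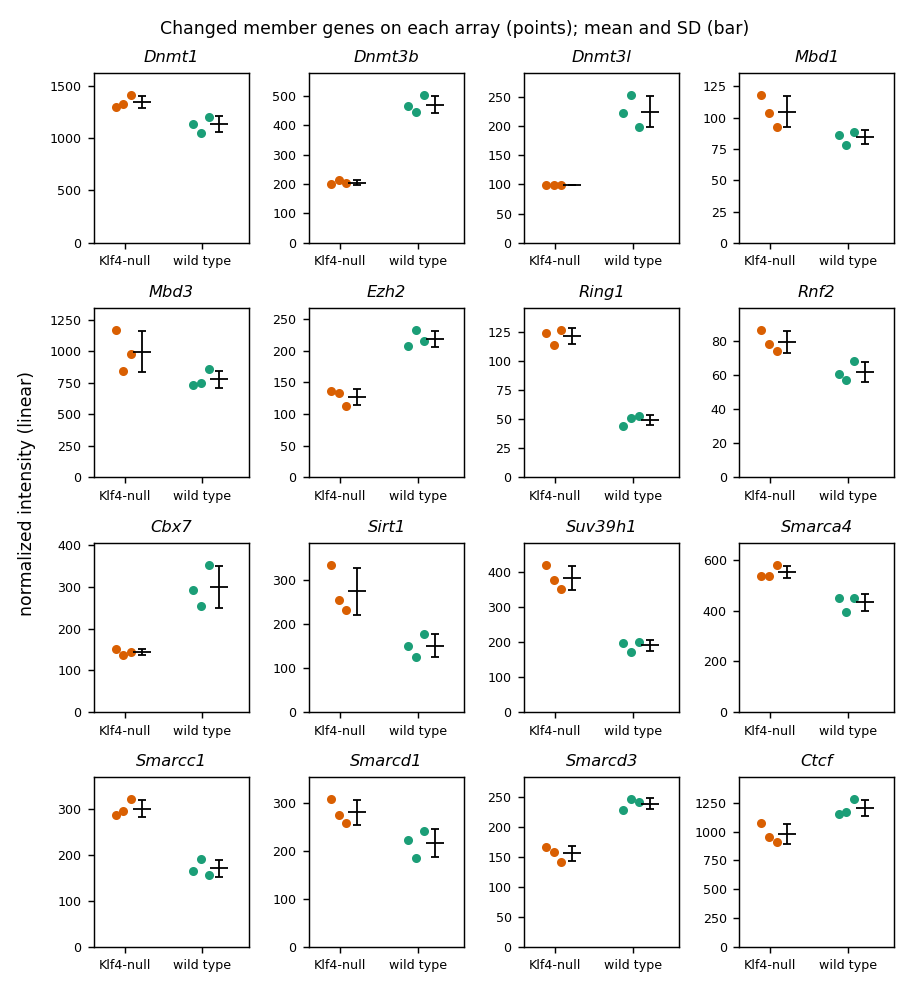
Normalized intensity, linear and from 0, of the 16 changed member genes on each array by their brightest tested probe, with Klf4-null at left and wild type at right and bars for mean and SD (n = 3). The groups are apart for 15 of these genes, and those of Mbd3 overlap.

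Across the 55 tested member probes, the Klf4-null and wild-type arrays did not overlap for 28, beside 47.3% of all probes tested. Among the 12 genes with more than 1 tested probe, 5 (Mbd1, Rbbp4, Rbbp7, Bmi1 and Kdm5b) had a probe that passed and one that did not, and none had probes called in both directions. Counting any probe, 20 of the 38 tested members (52.6%) had a call, against 43.2% of all genes tested. Among genes with more than 1 tested probe, the share was 6 of 12 members (50%), against 65.4% of all such genes. The 22 genes that did not pass had log2 fold changes between -0.23 and 0.28, with a median SE over all tested members of 0.09.

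Other genes of the same machinery were counted from a list of 135 genes, 133 of them with a probe and 125 tested. Of these, 33 rose, 28 fell and 64 did not pass, so that 48.8% changed, beside the background of 40.1%, with a median log2 fold change of -0.0035 and a median size of 0.21. Among further Polycomb genes 6 rose and 6 fell of 18, and among further deacetylases and corepressors 4 rose and 6 fell of 16. Further histone methyltransferases gave 6 rises and 3 falls of 18, acetyltransferases 1 and 2 of 10, and demethylases 5 and 0 of 12. Further SWI/SNF genes gave 3 rises and 1 fall of 13, other remodellers and NuRD genes 4 and 5 of 18, cohesin genes and histone chaperones 2 and 3 of 12, and further genes of DNA methylation 2 and 2 of 8.

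The 5 with the largest rises and groups apart were Uhrf2, Chd7, Kdm6a, Gatad2a and Nsd2. Uhrf2, a relative of Uhrf1, gave 2150.1 ± 83 in Klf4-null cells and 217 ± 14.9 in wild-type cells (SD, n = 3), a rise of 9.91-fold (log2 fold change 3.31 with SE 0.08, adjusted p = 8.1e-13), and its 3 further tested probes rose with log2 fold changes from 0.50 to 1.79. The remodeller Chd7 gave 179.5 ± 26.3 in Klf4-null cells and 54.2 ± 2.07 in wild-type cells and was above the floor on 1 wild-type array (3.29-fold, log2 fold change 1.72 with SE 0.10, adjusted p = 6.6e-09). Kdm6a, the X-linked relative of Kdm6b that also removes the PRC2 mark, gave 453 ± 25.5 in Klf4-null cells and 195 ± 21.1 in wild-type cells (2.33-fold, log2 fold change 1.22 with SE 0.09, adjusted p = 1.1e-07), and its second tested probe rose 2.41-fold. The NuRD subunit Gatad2a rose 1.96-fold (log2 fold change 0.97 with SE 0.09, adjusted p = 1.5e-06). The H3K36 methyltransferase Nsd2 rose 1.68-fold (log2 fold change 0.75 with SE 0.08, adjusted p = 6.1e-06), and its 5 further tested probes rose by 0.31 to 0.72 on the log2 scale.

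By fitted log2 fold change, the falls named are those of Hdac11, Cbx6, Pcgf3, Smarca1 and Rcor1, without an order among them, since the Klf4-null values of Hdac11 and Smarca1 are at background. Hdac11, a class IV deacetylase, was above the floor on no Klf4-null array and fell at least 1.61-fold (log2 fold change -0.96 with SE 0.08, adjusted p = 3.8e-07). The chromobox gene Cbx6, a paralogue of Cbx7, gave 1967 ± 250 in Klf4-null cells and 3808 ± 206 in wild-type cells and fell 1.94-fold (log2 fold change -0.96 with SE 0.10, adjusted p = 2.6e-06). Pcgf3, a relative of Bmi1 found in variant PRC1, gave 205 ± 2.54 in Klf4-null cells and 341 ± 9.25 in wild-type cells (1.66-fold lower, log2 fold change -0.73 with SE 0.07, adjusted p = 2.4e-06). The ISWI remodeller Smarca1, X-linked, was at background on the Klf4-null arrays and fell at least 1.29-fold (log2 fold change -0.63 with SE 0.08, adjusted p = 3.4e-05). Rcor1, the corepressor that links Kdm1a to deacetylases, fell 1.55-fold on its brightest probe (log2 fold change -0.63 with SE 0.11, adjusted p = 0.00034) and 3.29-fold on its other tested probe.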

How the data were processed

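The authors' deposited series table gave 1 linear intensity per probe and array for 46621 probes on 6 arrays, 3 per genotype. Nearly equal sorted values show that these intensities had been normalized between arrays, but the method, the background treatment and the annotation build are not given in the sources used here. No array had a value below 25.8, and the array medians of 51.7 to 51.8 lay just under the floors. An offset from background therefore remains in the values, and ratios of dim probes are shrunk. A second deposited table (unit other, no measurement used) supplied gene symbols, and its 12 signal and detection columns match no sample's labels and were left out. Symbols were updated through RefSeq (GRCm38.p6): 25438 were current, 8747 unique synonyms and 12436 kept.

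Values were log2-transformed. The floor on each array is the 95th percentile of background mirrored at the mode, and probes above it on at least 3 of 6 arrays were tested, 21825 in all. Genotypes were compared without covariates in limma 3.58.1 (R 4.3.3), 2-sided, with Benjamini-Hochberg adjustment over all probes (single probes) or all genes (counts of genes, each by its brightest tested probe). Where a group was above the floor on no array, the ratio is a lower bound against the floor. The procedure was tested on simulated data. Named genes are members with a call, probes of such genes whose call differs, and the 5 largest changes each way among other chromatin genes. The members, lists and settings were chosen with earlier results of these data known. Replicate numbers were not used to pair the samples. Deviations from the group means correlated at -0.02, 0.05 and -0.23 between same-numbered arrays and at -0.26 to 0.27 between differently numbered ones. With 3 arrays per group these values cannot show whether arrays of the 2 groups shared a batch. The number of arrays limits the precision.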

Additional observations from a re-analysis of the deposited data

How the results depend on the processing

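None of the 24 member probes called changed direction under the 17 alternatives that gave it a value. Tested against a 1.5-fold change, 1766 probes, 7 member probes, 789 genes higher and 688 lower passed, with 2 members higher (Ring1 and Suv39h1) and 3 lower (Dnmt3b, Dnmt3l and Cbx7), so that the balance of higher and lower turned both for members and for all genes (53.4% of called genes higher), and 4 other chromatin genes higher and 2 lower. Without sharing the variance between probes, 6114 probes (29.4% of genes), 15 member probes and 5 higher and 5 lower members passed, and 19 other chromatin genes were higher and 16 lower. The calls of Dnmt1, Ctcf, Mbd3, Smarcd1, Sirt1, Mbd1 and Rnf2 were lost there and that of Rbbp4 was gained. The member median of 0.11 became 0.0314 with no filter on dim probes and 0.0470 with the mean of all tested probes of a gene, and ranged from 0.0404 to 0.146 as each array was left out. Leaving out an array gave 7 to 12 higher and 5 to 6 lower members, and without wild-type replicate 3 Hdac3, Cbx8 and Kdm5b were gained. Averaging probes added Rbbp4 and Kdm5b as higher, lost Mbd1, and added Rbbp7 as lower (-0.29, adjusted p = 0.0078 by limma), against 0.09 on its brightest probe. The sign of Bmi1 and Chd1, which passed in neither, also turned. With the replicate number as a block, 8052 probes passed, and 11 members were higher, Cbx8 being added, and 6 lower, which changed no other member call. Quantile normalization, normexp at an offset of 50, an offset of 16, a trend and a fixed floor of 64 kept all 16 member calls, with Rbbp4 gained under normexp and under the offset of 16. Restricting the test to probes above the floor on all 6 arrays left Ring1 untested.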

Other observations

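Of the members and other chromatin genes tested, 12 lie on the X chromosome, a set drawn up after values had been seen. Of these, 4 rose in Klf4-null cells (Kdm6a, Suv39h1, Stag2 and Kdm5c), 3 fell (Smarca1, Hdac8 and Smc1a) and 5, Rbbp7 among them, did not pass. That is 58.3% changed, beside 49.5% of all 398 X-linked genes tested and 40.1% of all genes. Kdm6a and Kdm5c are known to escape X inactivation in mice. Kdm5c, a demethylase of H3K4, gave 217 ± 18.6 in Klf4-null cells and 153 ± 18.5 in wild-type cells on its brightest probe (log2 fold change 0.50 (SE 0.10)), while a second tested probe gave -0.13 (SE 0.08) and did not pass. The cohesin subunit Stag2 gave 137 ± 8.32 in Klf4-null cells and 96.3 ± 1.22 in wild-type cells (log2 fold change 0.51 (SE 0.08)), and the cohesin subunit Smc1a gave 2854 ± 268 in Klf4-null cells and 3432 ± 312 in wild-type cells (log2 fold change -0.27 (SE 0.10)). The second tested probe of Stag2 rose (0.44 (SE 0.08)), and that of Smc1a did not pass (0.04 (SE 0.13)). The part of sex in these values was not tested.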
